A study of Homo sapiens with 24 samples.

Results

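The genes described here are the human translation initiation factors, taken as every protein-coding row of the count table whose symbol starts with EIF1, EIF2, EIF3, EIF4, EIF5 or EIF6. This rule also takes in the binding proteins that hold EIF4E (EIF4EBP1 to EIF4EBP3) and the kinases that act on eIF2 (EIF2AK1 to EIF2AK4). Of 60668 rows, 143 carried such a symbol, 87 of these were not annotated as protein-coding, and 56 genes were left. The filter on low counts kept 54 of them. EIF4E1B, with 0 to 2 counts per library, and EIF1AY did not pass it, so every count below is out of 54.

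RNA was sequenced from MCF-10A, an immortalised, non-tumour line of human breast epithelium, and from its derivative MCF-10A MYC-ER, which carries MYC fused to an oestrogen receptor domain that responds to ligand. Both lines grew as 3D cultures on growth-factor-reduced Matrigel and received 1 µM 4-hydroxytamoxifen (4-OHT), the ligand that releases the fusion protein into the nucleus, for 0, 8, 24 or 48 h. Treatment began at different times and collection was simultaneous, so the cultures had the same age. Each of the 8 groups has 3 libraries, which makes 24. The 4 MYC-ER groups carry the fusion and the 4 parental groups do not; no vehicle is named for 0 h. The promoter that drives the fusion, and whether the line is 1 clone, are not given in the sources used here. Because the labels do not say that replicates came from separate cultures, the p-values measure the spread between these libraries, which may be partly technical.

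Translation of most messenger RNAs starts when eIF4F, made of the cap-binding protein EIF4E, the scaffold EIF4G1 and the RNA helicase EIF4A, recruits the small ribosomal subunit. That subunit already carries eIF1, eIF1A, eIF3, eIF5 and the complex of eIF2, GTP and initiator methionine tRNA. Control falls mainly on the EIF4E-binding proteins, which block EIF4E when mTORC1 is inactive, and on eIF2, whose phosphorylation by the EIF2AK kinases turns it into an inhibitor of its exchange factor eIF2B. MYC is known to raise the transcription of several initiation factors, EIF4E among them.

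Library totals ran from 136860029 to 182438505 counts. Values are given as CPM, counts scaled to a common TMM-adjusted library total, so they are relative amounts, and fewer cells of a type cannot be told apart from less RNA per cell. All 8 basal epithelial markers were detected in the 24 libraries, with EPCAM the lowest at 1.73 to 77.8 CPM. Summed, they were at 18700 to 29700 CPM in parental libraries. In MYC-ER libraries the sum was 14600 to 16400 CPM at 0 and 8 h and 10900 to 11600 CPM at 24 and 48 h. The part of this difference in the results below was not tested. Among 8 markers of leukocytes, endothelium and fibroblasts, CD3E and CDH5 were at 0 counts in all libraries, while PTPRC and COL3A1 did not exceed 0.0124 CPM. The summed level of these 8 markers was 385 to 391 CPM in untreated MYC-ER cells and 87.0 to 146 CPM in the other 7 groups, carried by COL1A1, DCN and CD68. Mitochondrial transcripts likewise took 9.24% to 9.71% of the counts in untreated MYC-ER libraries and 3.86% to 7.78% elsewhere. Both measures move with the 0 h baseline of every MYC-ER comparison below, and their part in those results was not tested. MYC itself measured 378 to 394 CPM in untreated MYC-ER libraries and 793 to 797 after 8 h, then 312 to 329 (24 h) and 244 to 253 (48 h); whether its row holds reads of the fusion was not tested.

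Most initiation factor transcripts rose in MYC-ER cells at 8 h, and most fell again from there. At 8 h against 0 h, 36 of 54 were higher and 11 lower at an adjusted p of 0.05 or less (edgeR quasi-likelihood test, Benjamini-Hochberg over all genes). Fitted log2 changes below are given ± their standard error, with adjusted p from that test. Over all 22158 genes tested, 32.2% were called higher and 35.4% lower in the same comparison, 67.6% in all. The median log2 change was 0.53 for the initiation factors and -0.10 for all genes, and 15 factors rose at least 2-fold while 2 fell at least 2-fold (15.1% and 19.6% of all genes). At 24 h, 28 factors were higher and 17 lower (30.4% and 31.2% of all genes), with a median of 0.22. At 48 h, 17 were higher and 14 lower (23.4% and 20.7% of all genes), with a median of -0.01. These 3 comparisons share the 0 h libraries. Between 8 and 24 h, 34 factors fell and 5 rose (27.1% and 28.4% of all genes). Between 24 and 48 h, 29 fell and 15 rose (25.5% and 28.2%), with some factors, EIF4E and EIF4G1 among them, falling in both steps. Scaling by library size alone moved the median of all genes at 48 h against 0 h from 0.03 to 0.19, with 73.8% in place of 53.0% of all called genes higher and 26 factors higher against 10 lower. Between 8 and 24 h it moved that median from 0.05 to 0.26, with 67.8% in place of 51.2% higher, and left 21 factors falling and 13 rising.

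**Figure D1:**
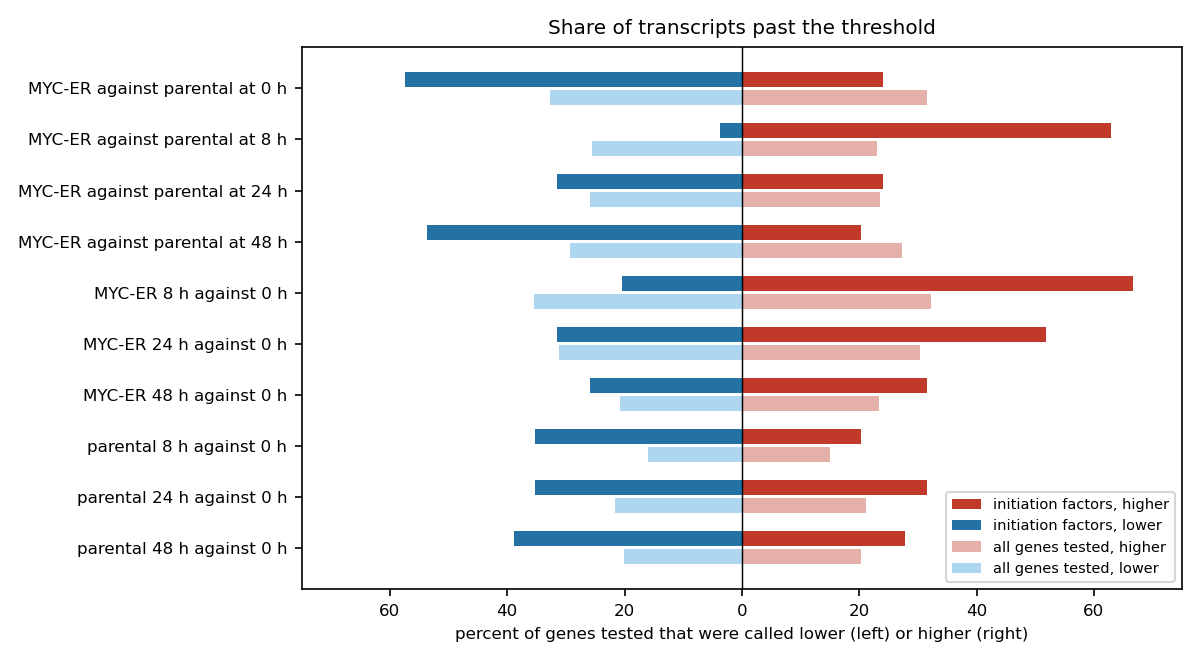
Percent of initiation factors (dark bars, of 54) and of all 22158 genes tested (pale bars) called lower, to the left, or higher, to the right, in each of 10 comparisons. In MYC-ER cells at 8 h against 0 h the bars stand for 36 higher and 11 lower factors, and against parental cells at 8 h for 34 higher and 2 lower.

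Most of the factors that rose had started below the parental level, as had 5147 of the 7141 genes called higher at 8 h. Before 4-OHT, 31 factors stood below the parental level in MYC-ER cells and 13 above it (32.7% and 31.6% of all genes). These log2 differences followed the GC content of genes in part (Spearman rho -0.26 over 9777 genes). With each library's GC trend removed, 30 factors were below and 10 above. After 8 h, 34 were above the parental level at the same time and 2 below, namely EIF1B and EIF3K (23.1% and 25.5% of all genes). Of the 36 that rose, 25 were above parental cells at 8 h, and of the 7141 genes called higher at 8 h, 3281 were. As a share of all genes tested, 14.8% have both calls, against 25 of the 54 factors. By 24 h the split was 13 higher and 17 lower (23.5% and 25.8%), and by 48 h it was 11 higher and 29 lower (27.3% and 29.4%). With library size alone the splits were 25 and 8 at 24 h and 20 and 23 at 48 h (60.7% and 59.8% of all called genes higher in place of 47.6% and 48.2%), and with upper-quartile scaling 22 and 10, and 17 and 23 (58.4% and 59.7%). Of the 54 factors, 29 were both lower than parental at 0 h and higher at 8 h than at 0 h, a pair of calls found in 23.2% of all genes. Another 9 were higher than parental at 0 h and lower at 8 h (22.7% of all genes), namely EIF2AK3, EIF2D, EIF3E, EIF3H, EIF3L, EIF4A2, EIF4B, EIF4EBP2 and EIF4EBP3. The 0 h call of EIF3H (log2 difference 0.21) was lost in a fit of the compared groups alone (0.21) and without MYC-ER 0 h replicate 3 (0.19) or parental 0 h replicate 2 (0.12), and its direction turned when each library's trend with the GC content of genes was removed (-0.023). These comparisons share the untreated MYC-ER libraries, so a low or high value there enters both calls. The summed level of all factors was 12973, 12144 and 13343 CPM in untreated parental libraries and 11443, 12056 and 11976 CPM in untreated MYC-ER libraries, which overlap none of the former. It reached 15199, 14575 and 15026 CPM at 8 h, 13049, 12448 and 12488 CPM at 24 h, and 11716, 11507 and 11414 CPM at 48 h. MYC-ER at 8 h was the group with the highest mean for 28 of the 54 factors, and untreated MYC-ER for 10. Untreated MYC-ER was the group with the lowest mean for 18, and MYC-ER at 48 h for 14. The same counts over all genes were not made, so whether they are particular to the factors was not tested.

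**Figure D2:**
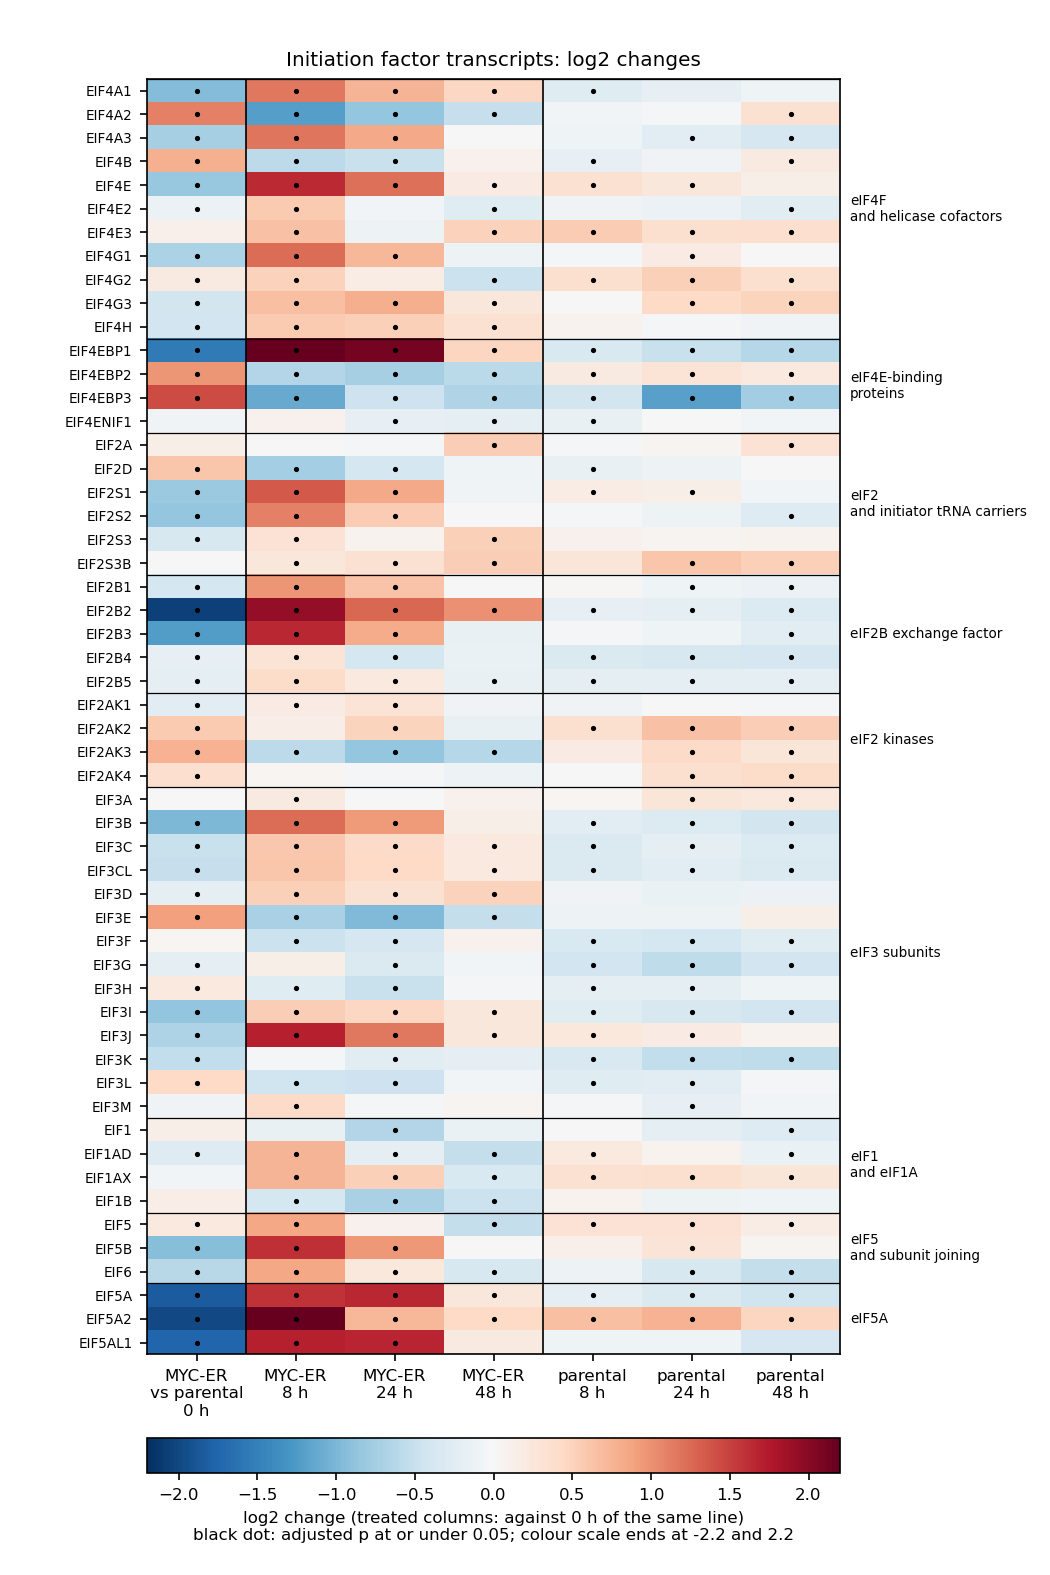
Log2 changes of the 54 initiation factors (rows, ordered by role) in 7 comparisons (columns); red is higher, blue is lower, and a black dot marks an adjusted p of 0.05 or less. The first column, MYC-ER against parental at 0 h, is blue for 31 factors called lower, and the second, MYC-ER at 8 h against 0 h, is red for 36 called higher, with EIF4A2 and EIF4EBP3 showing the opposite pair of colours.

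MYC with its partner MAX is known to bind the E-box CACGTG, so the promoters were searched for it. RefSeq promoter windows (GRCh38.p14, 250 bases before to 50 after the start) were found for 47 of the 56 genes. The motif, a palindrome read on both strands at once, was present in 12 of these 47 genes (25.5%) and in 8.77% of the 27305 genes in the table. By window, the shares were 19.1% of 63 windows and 7.26% of 35116. No restriction to protein-coding or tested genes was applied to the 27305 genes, so these shares come from unlike sets. Genes with the motif were found in each class of change. It was in 6 of 31 genes called higher at 8 h (EIF4E, EIF4G1, EIF5A2, EIF2B3, EIF4A3 and EIF4H), in 4 of 8 called lower (EIF1B, EIF3F, EIF4B and EIF4EBP3) and in 2 of 6 not called (EIF2AK2 and EIF3K). A match is a description of the sequence and not a measured binding site. The 250 bases before the start are shown for the 3 genes with a pair of motifs, all of which rose at 8 h, and for 2 genes with a motif that fell, 5′ to 3′ on the gene's strand with the motif in capitals.
EIF4E (minus strand, chr4:98929134-98929383): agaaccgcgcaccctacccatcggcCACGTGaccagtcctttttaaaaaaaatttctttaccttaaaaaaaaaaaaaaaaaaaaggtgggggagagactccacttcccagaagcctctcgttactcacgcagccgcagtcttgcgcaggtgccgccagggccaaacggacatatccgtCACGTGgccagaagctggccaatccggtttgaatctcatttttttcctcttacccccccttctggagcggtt
EIF4G1 (plus strand, chr3:184314356-184314605): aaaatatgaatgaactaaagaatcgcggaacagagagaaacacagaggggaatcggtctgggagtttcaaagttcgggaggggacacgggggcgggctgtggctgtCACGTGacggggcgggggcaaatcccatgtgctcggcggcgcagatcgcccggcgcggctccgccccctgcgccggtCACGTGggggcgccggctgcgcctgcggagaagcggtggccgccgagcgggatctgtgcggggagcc
EIF5A2 (minus strand, chr3:170908638-170908887): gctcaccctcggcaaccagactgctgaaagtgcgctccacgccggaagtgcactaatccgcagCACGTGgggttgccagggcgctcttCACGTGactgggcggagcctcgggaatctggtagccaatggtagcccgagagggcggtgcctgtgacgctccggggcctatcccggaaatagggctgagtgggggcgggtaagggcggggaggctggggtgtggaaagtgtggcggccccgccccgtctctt
EIF4B (plus strand, chr12:53006206-53006455): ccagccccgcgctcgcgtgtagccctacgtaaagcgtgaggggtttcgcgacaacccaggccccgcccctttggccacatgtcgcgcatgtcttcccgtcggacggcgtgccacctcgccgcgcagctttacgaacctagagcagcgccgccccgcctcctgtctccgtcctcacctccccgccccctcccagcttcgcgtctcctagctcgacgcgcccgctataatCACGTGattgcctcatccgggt
EIF4EBP3 (plus strand, chr5:140547412-140547661): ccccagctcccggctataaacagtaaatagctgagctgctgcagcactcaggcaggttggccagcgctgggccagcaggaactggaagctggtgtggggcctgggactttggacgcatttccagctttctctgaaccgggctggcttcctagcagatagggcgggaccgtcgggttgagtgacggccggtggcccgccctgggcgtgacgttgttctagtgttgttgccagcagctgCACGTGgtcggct
The motifs begin 225 and 72 bases before the start in EIF4E, 144 and 67 in EIF4G1, 187 and 162 in EIF5A2, 22 in EIF4B and 13 in EIF4EBP3.

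The 3 core genes of eIF4F rose together. EIF4E, the cap-binding protein whose amount is often limiting for initiation, stood at 29.5, 31.4 and 30.0 CPM in untreated MYC-ER libraries, at 97.0, 96.0 and 92.0 at 8 h, at 75.4, 65.9 and 69.3 at 24 h and at 34.1, 34.9 and 33.5 at 48 h. The 8 h libraries lie above all others of the series, and the untreated ones below all others. The log2 change was 1.65 ± 0.06 (adjusted p 3.29e-16) at 8 h and 1.21 ± 0.06 (adjusted p 6.27e-14) at 24 h. Parental libraries ranged from 50.8 to 68.5 CPM over the 4 times, and untreated MYC-ER cells were below untreated parental cells by a log2 difference of -0.83 ± 0.06 (adjusted p 3.69e-11). The 48 h change of 0.17 passed the threshold (adjusted p 0.0181) but did not when MYC-ER 0 h replicate 1 or 3, or MYC-ER 48 h replicate 2, was left out (log2 changes of 0.15, 0.17 and 0.16).

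EIF4G1, the scaffold that joins EIF4E to the helicase and to eIF3, was at 497, 509 and 497 CPM at 0 h and 1178, 1142 and 1185 at 8 h in MYC-ER cells. At 48 h it was back at 472, 458 and 456 CPM, below the parental 48 h libraries at 723, 854 and 881. Its log2 change was 1.22 ± 0.07 (adjusted p 5.57e-13) at 8 h, 0.72 ± 0.07 (adjusted p 4.21e-09) at 24 h and -0.12 (adjusted p 0.171, not past the threshold) at 48 h. EIF4A1, the main eIF4F helicase, moved from 497, 541 and 505 CPM to 1232, 1049 and 1174 at 8 h, a log2 change of 1.16 ± 0.09 (adjusted p 2.71e-10), and was still above its start at 48 h with 725, 665 and 719.9. An annotated read-through transcript joins it to SENP3, so part of its count could belong there.

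EIF4A2, a close paralogue of EIF4A1, went the other way. Untreated MYC-ER libraries held 499, 515 and 495 CPM, the highest level in the series, against 208, 268 and 225 in untreated parental libraries. At 8 h the MYC-ER libraries were at 211, 224 and 212 CPM, inside the parental range, then at 267, 284 and 287 at 24 h and 358, 348 and 357 at 48 h. The log2 change was -1.22 ± 0.07 (adjusted p 2.2e-12) at 8 h and remained -0.51 at 48 h (adjusted p 5.81e-06). Within each library, the ratio of EIF4A2 to EIF4A1 per kilobase of the longest coding transcript does not depend on the scaling of libraries. It was 0.918, 0.871 and 0.896 in untreated MYC-ER libraries, 0.157, 0.196 and 0.165 at 8 h, and 0.202, 0.278 and 0.175 in untreated parental libraries. The untreated MYC-ER libraries were thus the closest to equal amounts of the paralogues, and at 48 h the ratio was 0.451, 0.478 and 0.454, above every parental library.

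**Figure D3:**
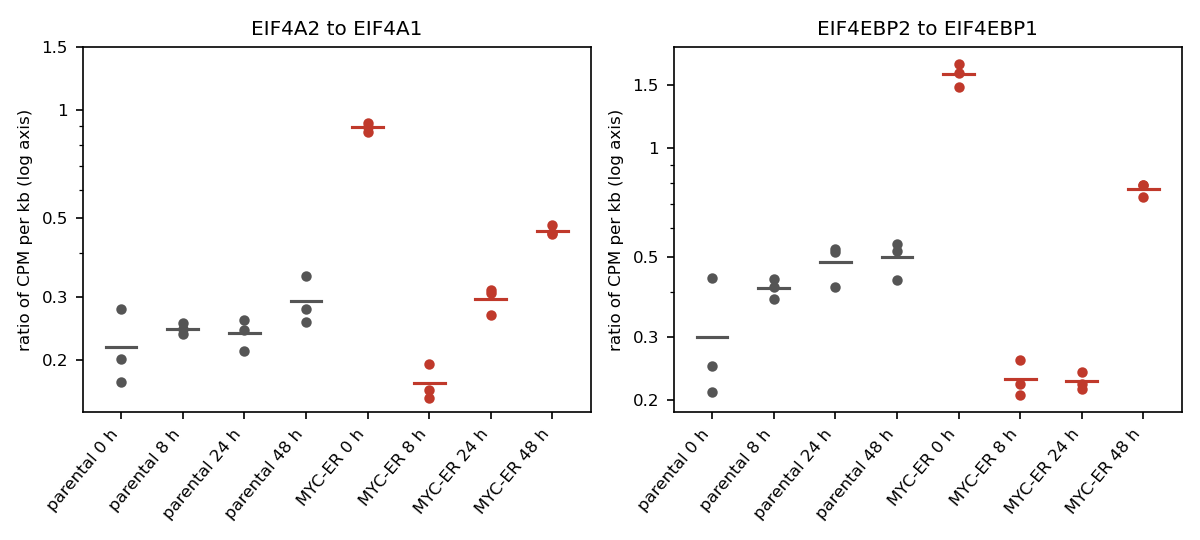
Ratio of CPM per kilobase of EIF4A2 to EIF4A1 (left) and of EIF4EBP2 to EIF4EBP1 (right) on log axes, 1 point per library, bar at the mean of 3, parental in grey and MYC-ER in red. Untreated MYC-ER libraries stand apart in both panels, at 0.871 to 0.918 on the left and 1.48 to 1.72 on the right.

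The other genes of the group moved in both directions. Of the 11 genes of eIF4F and its helicase cofactors, 9 were higher and 2 lower at 8 h (32.2% and 35.4% of all genes), 6 and 2 at 24 h (30.4% and 31.2%), and 5 and 3 at 48 h (23.4% and 20.7%). EIF4B, which stimulates the helicase, was the second that fell, from 1140.1, 1247 and 1209.6 CPM to 810.2, 787 and 803 at 8 h (log2 change -0.58 ± 0.07, adjusted p 6.05e-08). It was back at 1290.2, 1291 and 1264 CPM at 48 h, above the parental 48 h libraries at 719, 817 and 867. EIF4H, a related cofactor, rose by a log2 change of 0.58 (adjusted p 1.39e-07) and was higher at all 3 times. EIF4G3, a second scaffold, rose by 0.67 at 8 h and 0.79 at 24 h, but it also rose in parental cells at 24 h, by 0.44 (adjusted p 6.67e-05). EIF4G2, which lacks the EIF4E-binding region and serves cap-independent initiation, was up by 0.51 at 8 h and down by -0.47 at 48 h (adjusted p 1.87e-05), with 630.5, 625 and 605 CPM at 48 h as the lowest libraries of the series. EIF4A3, a helicase of the exon junction complex rather than of initiation, rose by 1.18 ± 0.06 (adjusted p 1.21e-13) at 8 h. EIF4E2 and EIF4E3, cap-binding relatives of EIF4E, rose by 0.57 and 0.65 at 8 h; at 24 h neither passed the threshold.

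**Figure D4:**
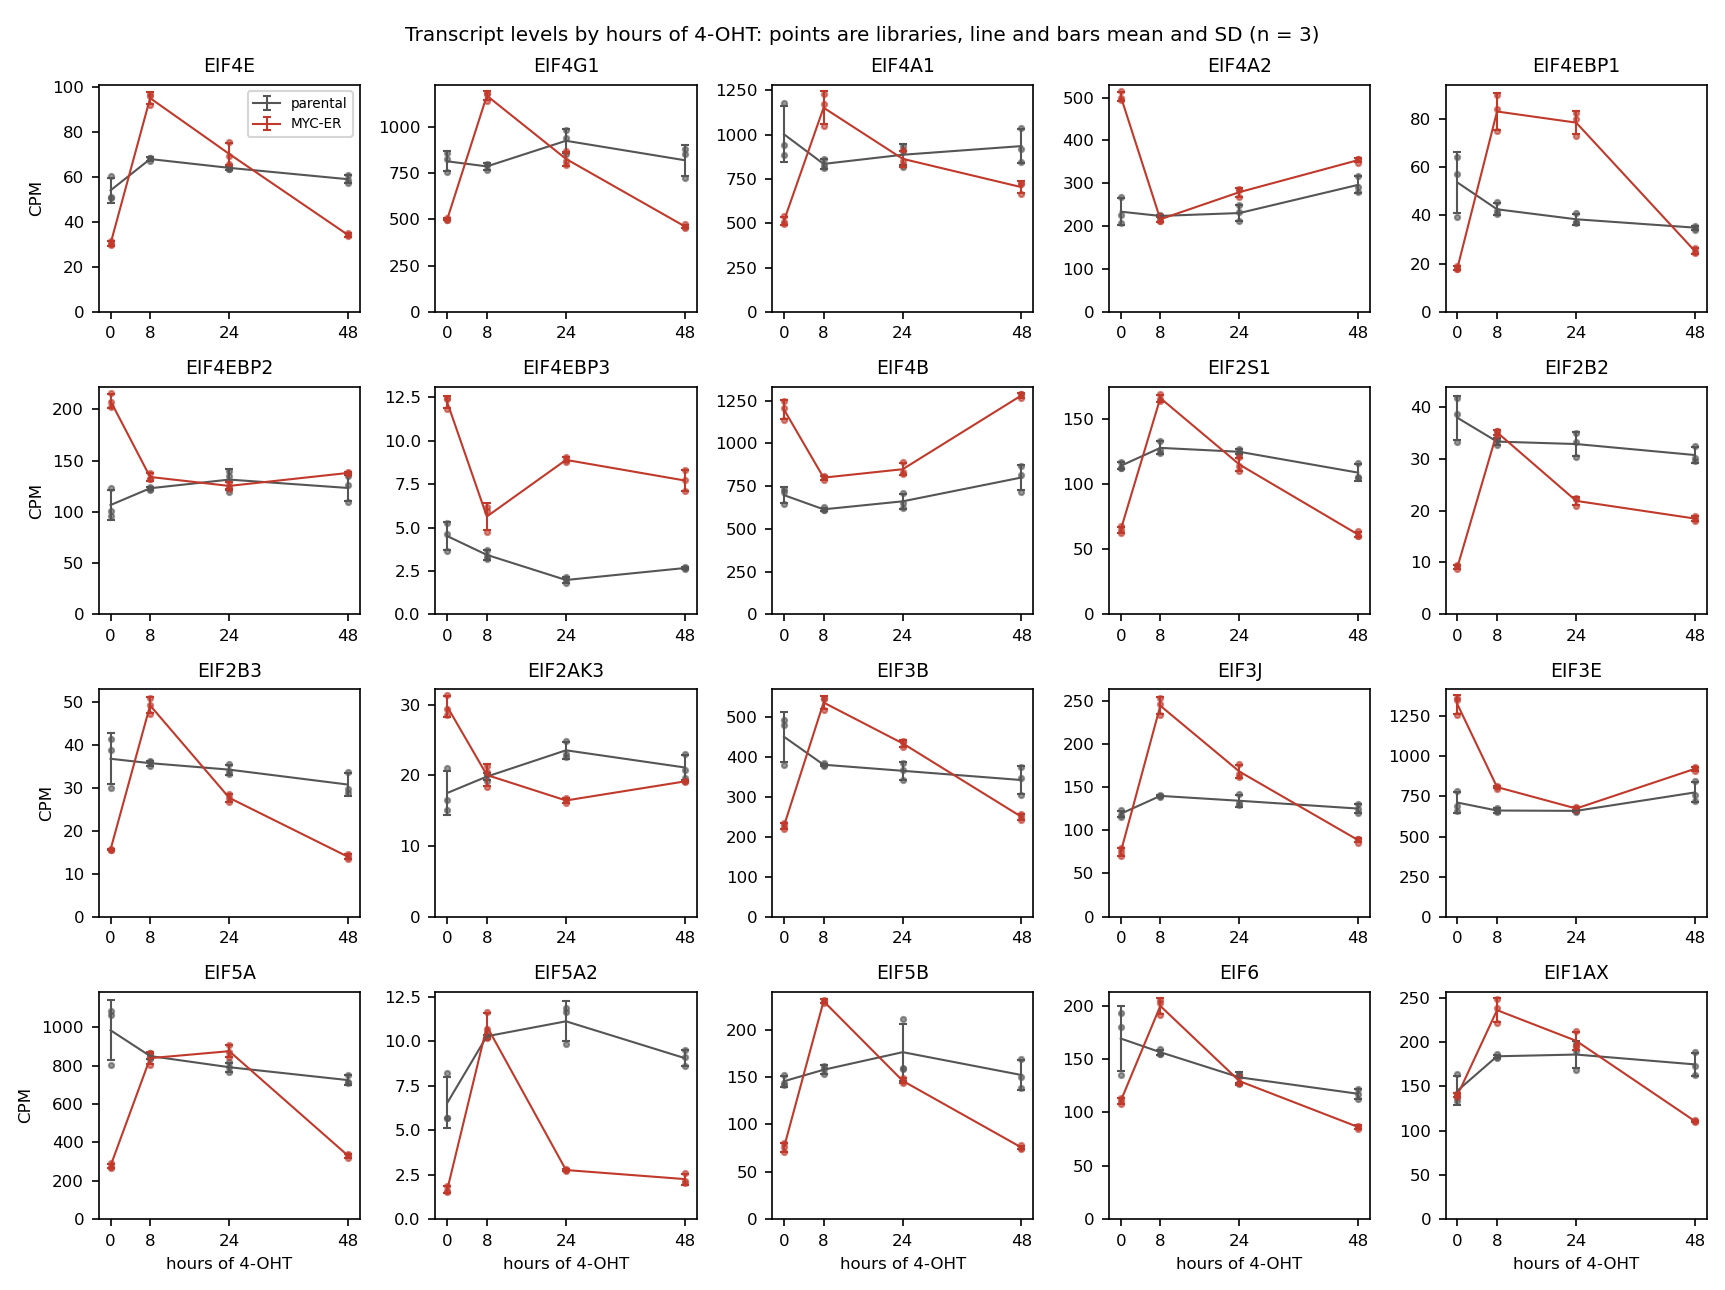
CPM of 20 initiation factors against hours of 4-OHT; points are libraries, lines join group means and bars are SD (n = 3), parental in grey and MYC-ER in red. EIF4E, EIF4G1, EIF2S1, EIF2B3 and EIF5B peak at 8 h in MYC-ER cells and are near their starting level at 48 h, whereas EIF4EBP1 and EIF5A stay high to 24 h, and EIF4A2, EIF4EBP2 and EIF2AK3 start high.

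The EIF4E-binding proteins diverged. These repressors compete with EIF4G1 for EIF4E until mTORC1 phosphorylates them. EIF4EBP1 was at 17.9, 17.6 and 19.1 CPM in untreated MYC-ER libraries, 89.9, 75.0 and 84.1 at 8 h, 82.2, 80.0 and 73.0 at 24 h and 26.4, 24.6 and 24.4 at 48 h. The 8 and 24 h libraries are the 6 highest of the series, since the parental libraries span 34.0 to 64.0 CPM. The log2 change was 2.19 ± 0.12 (adjusted p 2.59e-13) at 8 h and 2.10 ± 0.12 (adjusted p 6.13e-13) at 24 h, and it shrank to 0.47 (adjusted p 0.00188) at 48 h. It was the 1 binding protein of the 3 that rose at 8 h, when its target EIF4E rose too.

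EIF4EBP2 fell from 207, 216 and 202 CPM to 132, 138 and 132 at 8 h and stayed near that level, at 138, 139 and 137 at 48 h. Its log2 changes were -0.64 ± 0.08 (adjusted p 2.38e-07), -0.73 and -0.59 at 8, 24 and 48 h, and untreated MYC-ER cells had exceeded untreated parental cells by 0.96 (adjusted p 4.39e-10). The ratio of EIF4EBP2 to EIF4EBP1 per kilobase fell from 1.62, 1.72 and 1.48 at 0 h to 0.206, 0.259 and 0.221 at 8 h. EIF4EBP3, far lower, fell from 12.4, 11.8 and 12.4 to 5.97, 4.75 and 6.18 CPM at 8 h, a log2 change of -1.12 ± 0.12 (adjusted p 1.85e-08); a read-through transcript from ANKHD1 makes its count uncertain. It also fell in parental cells at 24 h, from 4.60, 3.66 and 5.26 to 1.97, 1.78 and 2.18 CPM (log2 change -1.19, adjusted p 3.64e-07). EIF4ENIF1, which carries EIF4E into the nucleus, did not pass the threshold at 8 h (log2 change 0.09, adjusted p 0.121).

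Among the genes of eIF2 and its alternatives, 4 of 6 were higher and 1 lower at 8 h (32.2% and 35.4% of all genes), EIF2S3B with a call that was not stable. EIF2S1, the alpha subunit that carries the regulatory phosphorylation site, rose from 62.4, 67.3 and 64.5 CPM to 169, 164 and 165 at 8 h and was at 63.4, 59.7 and 60.0 at 48 h. The 8 h libraries were above every parental library (104 to 133 CPM), and the 0 and 48 h libraries below every one. The log2 change was 1.36 ± 0.05 (adjusted p 3.3e-16) at 8 h and 0.82 at 24 h. EIF2S2, the beta subunit, behaved alike with 1.11 at 8 h and 0.56 at 24 h (adjusted p 2.4e-07). EIF2S3, the gamma subunit that binds GTP and the tRNA, changed less at 8 h (0.33, adjusted p 1.15e-05) and more at 48 h (0.53, adjusted p 3.27e-08). EIF2S3B is a near-identical copy of it, and counts of this pair may be split between them. The 8 h call of EIF2S3B (0.26, adjusted p 0.0366) was lost without any 1 of the 6 libraries compared (0.25 to 0.28). EIF2D, which can deliver initiator tRNA without eIF2, fell from 209, 214 and 209.9 to 126, 124 and 128 CPM at 8 h, a log2 change of -0.74 ± 0.05 (adjusted p 4.1e-11). EIF2A, another alternative carrier, first moved at 48 h, to 182, 176 and 178 CPM from 113, 127 and 128 (log2 change 0.54 ± 0.06, adjusted p 4.62e-08); the parental change at 48 h was 0.32, a call lost with the GC trend removed (0.012).

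All 5 genes of eIF2B, the complex that reloads eIF2 with GTP, were higher at 8 h, and all 5 had been below the parental level at 0 h, a pair of calls found in 23.2% of all genes. The 0 h call of EIF2B4 (log2 difference -0.17) was lost in several alternatives, among them those without parental 0 h replicate 1 (-0.12) or 3 (-0.10) and without MYC-ER 0 h replicate 1 (-0.15). It turned to 0.011 with the GC trend removed, and the call of its 8 h rise was lost with upper-quartile scaling (0.15). EIF2B2, the beta subunit, held 9.49, 9.24 and 8.68 CPM at 0 h against 38.6, 33.3 and 41.7 in untreated parental libraries. At 8 h it had reached 35.3, 34.5 and 35.4 CPM, next to 33.8, 32.6 and 33.5 in parental cells; the log2 difference between lines, 0.07, did not pass the threshold (adjusted p 0.382). Its log2 change was 1.94 ± 0.07 (adjusted p 4.08e-16) at 8 h, 1.26 at 24 h and 1.01 at 48 h (adjusted p 7.99e-11), which made it the factor with the highest rise still measured at 48 h. EIF2B3, the gamma subunit, went from 15.8, 15.6 and 15.5 CPM to 51.1, 47.4 and 49.5 at 8 h, a log2 change of 1.65 ± 0.08 (adjusted p 9.06e-14). In contrast to EIF2B2 it was back at 13.9, 13.4 and 14.6 CPM at 48 h (log2 change -0.16, adjusted p 0.112). EIF2B1 and EIF2B5 rose by 0.97 and 0.40 at 8 h.

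The 4 eIF2 kinases did not share one direction. EIF2AK3, the endoplasmic reticulum stress kinase PERK, was at 29.3, 31.3 and 28.5 CPM in untreated MYC-ER libraries, the highest of the series, and at 21.3, 20.4 and 18.4 at 8 h, 16.5, 16.0 and 16.8 at 24 h and 19.2, 19.2 and 19.0 at 48 h. The log2 changes were -0.57 ± 0.09 (adjusted p 7.91e-06) at 8 h, -0.85 ± 0.09 (adjusted p 2.76e-08) at 24 h and -0.64 at 48 h, while the parental change at 24 h was 0.43 (adjusted p 0.000545). EIF2AK2, the double-stranded RNA sensor PKR, was at 110.2, 99.5 and 101 CPM at 24 h against 70.4, 77.7 and 73.9 at 0 h (log2 change 0.49 ± 0.10, adjusted p 0.000237), and it rose in parental cells too (0.64). EIF2AK4, the amino acid sensor GCN2, had log2 changes of 0.04, -0.05 and -0.12 in MYC-ER cells with none past the threshold, its libraries covering 93.0 to 102 CPM at 0 h and 100.2 to 102 at 8 h. EIF2AK1, the haem-regulated kinase, changed by 0.17 at 8 h, which upper-quartile scaling reduced to 0.03 and no call, and by 0.30 at 24 h (adjusted p 1.41e-06).

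The 14 eIF3 genes, whose products form the large scaffold on the small ribosomal subunit, split into risers and fallers. At 8 h 8 were higher and 4 lower (32.2% and 35.4% of all genes), at 24 h 6 and 6 (30.4% and 31.2%), and at 48 h 5 and 1 (23.4% and 20.7%). Of the 5 higher at 48 h, EIF3C, EIF3CL and EIF3I did not keep their call in all alternative fits. EIF3J, a loosely bound subunit that acts at the mRNA entry channel, went from 69.9, 79.3 and 75.1 CPM to 253, 247 and 234 at 8 h, 177, 162 and 166 at 24 h and 89.7, 85.7 and 90.4 at 48 h. The parental libraries ranged from 116 to 142 CPM, so EIF3J crossed from below to above all of them and back. Its log2 change was 1.71 ± 0.05 (adjusted p 3.92e-17) at 8 h. EIF3B, a core subunit, rose from 220.1, 227 and 235 to 546, 517 and 544 CPM, a log2 change of 1.24 ± 0.08 (adjusted p 6.59e-12), and EIF3I, which binds it, rose by 0.55 (adjusted p 3.83e-06). EIF3C and EIF3D rose by 0.59 and 0.52 at 8 h. EIF3CL is a near-copy of EIF3C and gave nearly the same values (0.60), so their values are not independent, although each is counted as a member here. EIF3A, the largest core subunit, was called at 8 h with 0.20 (adjusted p 0.027), but the call was lost with library size alone (0.11), with upper-quartile scaling (0.06) and without MYC-ER 0 h replicate 1 or 3 or MYC-ER 8 h replicate 2 or 3 (0.16 to 0.20).

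The eIF3 genes that fell at 8 h were EIF3E, EIF3F, EIF3H and EIF3L. EIF3E, a subunit of the outer part of the complex, was at 1259, 1349 and 1365 CPM in untreated MYC-ER libraries, above every parental library (659.5, 691 and 785 at 0 h). It was at 815, 799.7 and 811 CPM at 8 h and 679, 664 and 682 at 24 h, where it met the parental libraries at 654, 668 and 659. The log2 change was -0.71 ± 0.06 (adjusted p 6.19e-10) at 8 h and -0.97 ± 0.06 (adjusted p 4.32e-12) at 24 h, the largest fall among the factors at that time. EIF3F and EIF3H, which hold the MPN domains of the complex, changed by -0.48 and -0.27 at 8 h, and EIF3L by -0.45. In parental cells at 8 h, where none of these calls held in a fit of the compared groups alone, the log2 changes of the same 3 genes were -0.34, -0.21 and -0.27, and the difference between the lines did not pass the threshold for any of them (adjusted p 0.224, 0.599 and 0.121). For EIF3E the difference between the lines did pass, at -0.61 ± 0.08 (adjusted p 2.28e-06). EIF3G and EIF3K were not called at 8 h (0.13 and -0.04). Both were lower at 24 h, EIF3G by a log2 change of -0.32 (adjusted p 0.00228) and EIF3K by -0.25 (adjusted p 0.0197). The call of EIF3K was lost with library size alone (-0.13) and without MYC-ER 0 h replicate 3 (-0.21) or MYC-ER 24 h replicate 1 (-0.24). EIF3M rose by 0.42 at 8 h alone.

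**Figure D5:**
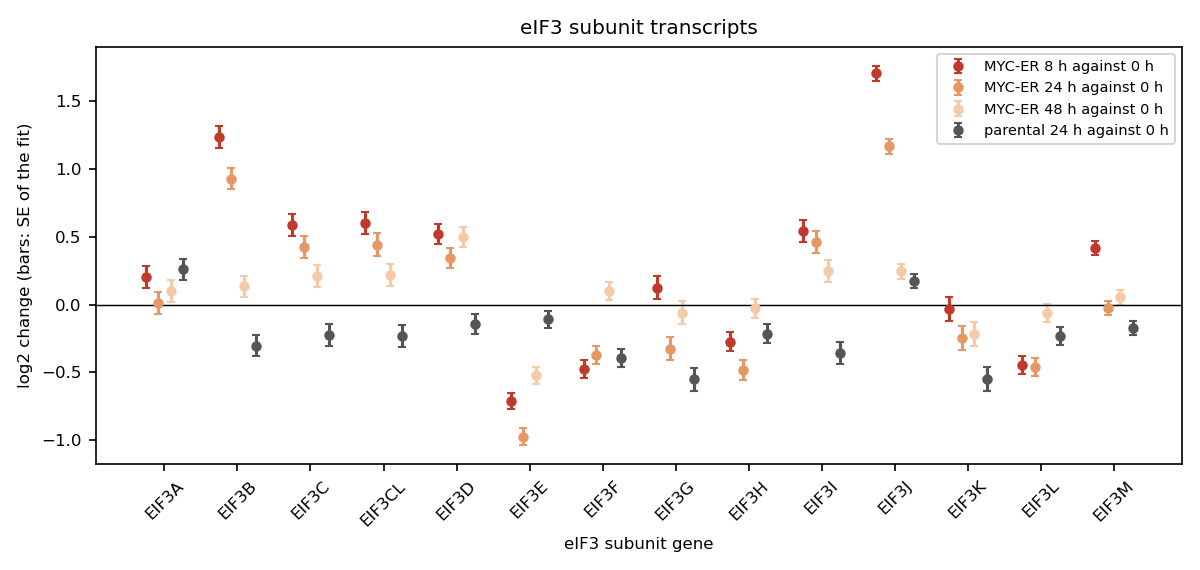
Log2 change with its SE for the 14 eIF3 genes in MYC-ER cells at 8, 24 and 48 h against 0 h (red to pale) and in parental cells at 24 h against 0 h (grey). EIF3J and EIF3B reach 1.71 and 1.24 at 8 h, whereas EIF3E lies at -0.71 at 8 h and -0.97 at 24 h.

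eIF1 and eIF1A open the small subunit for scanning, and their genes diverged with time. EIF1AX, which encodes eIF1A, rose from 141, 137 and 141 CPM to 239, 248 and 221 at 8 h (log2 change 0.75 ± 0.07, adjusted p 4.13e-09). By 48 h it had dropped to 110.4, 110.2 and 112 CPM, below every other library of the series, a log2 change of -0.34 against 0 h (adjusted p 0.00048); with library size alone as the scaling this was -0.18 and not past the threshold. EIF1AD, a related gene, was likewise higher at 8 h and lower at 48 h, with 0.75 at 8 h and -0.52 at 48 h. EIF1, which guards start codon selection, was not called at 8 h (-0.16, adjusted p 0.0934) and was down at 24 h, at 315, 297 and 304 CPM against 462, 469 and 494 (log2 change -0.64 ± 0.08, adjusted p 9.19e-07). EIF1B, its paralogue, was lower at all 3 times (-0.39, -0.71 and -0.47).

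The 3 genes of the last steps, GTP hydrolysis and joining of the ribosomal subunits, all rose at 8 h (32.2% of all genes). EIF5B, the GTPase that joins the subunits, went from 70.5, 80.3 and 76.2 CPM to 232, 230.4 and 228, a log2 change of 1.60 ± 0.09 (adjusted p 2.99e-13), and was at 78.0, 74.5 and 74.3 at 48 h. EIF5, the GTPase activator of eIF2, went from 226, 236 and 229.5 CPM to 423, 418 and 407 and then to 162, 158 and 159 at 48 h, lower than it began. Its log2 change was 0.85 ± 0.05 (adjusted p 4.99e-13) at 8 h and -0.53 ± 0.05 (adjusted p 4.89e-09) at 48 h. EIF6, which keeps the large subunit from joining too early and takes part in its assembly, rose from 108, 111 and 113 to 205, 192 and 203 CPM (log2 change 0.85 ± 0.08, adjusted p 4.07e-09). It too ended below its start, at 86.7, 87.6 and 84.7 CPM (log2 change -0.36, adjusted p 0.000854). Its 24 h call (0.22, adjusted p 0.0191) was lost with upper-quartile scaling (0.19) and without MYC-ER 0 h replicate 1 (0.21) or MYC-ER 24 h replicate 1 (0.20). Altogether 7 factors were higher at 8 h and lower at 48 h than at 0 h, EIF1AD, EIF1AX, EIF2B5, EIF4E2, EIF4G2, EIF5 and EIF6, a pair of calls found in 5.89% of all genes. With library size alone the 48 h calls of EIF1AX, EIF2B5 (-0.008) and EIF4E2 (-0.11) were lost.

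The eIF5A genes, whose products carry the amino acid hypusine and help ribosomes through difficult stretches, include the member with the largest rise at 8 h, EIF5A2. EIF5A was at 274, 268 and 289.9 CPM in untreated MYC-ER libraries and 1063, 804 and 1086 in untreated parental ones, a log2 difference of -1.83 ± 0.08 (adjusted p 1.12e-14). It rose to 864, 804 and 849 CPM at 8 h and 909.7, 872 and 845 at 24 h, overlapping or just above the parental libraries of those times, and was at 338, 336 and 318 at 48 h, where parental libraries held 713, 708 and 752. The log2 change was 1.60 ± 0.08 (adjusted p 7.21e-14) at 8 h and 1.66 ± 0.08 (adjusted p 4.89e-14) at 24 h. EIF5AL1, an intronless copy at 2.16 to 3.15 CPM at 8 h, followed it (1.71) and may hold reads of EIF5A.

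EIF5A2, the less abundant paralogue, had a shorter course. It went from 1.52, 1.58 and 1.88 CPM to 10.7, 11.6 and 10.2 at 8 h, a log2 change of 2.71 ± 0.13 (adjusted p 6.25e-14), and was down to 2.75, 2.71 and 2.82 CPM at 24 h. EIF5A had not receded at that time, so the paralogues separated between 8 and 24 h, with log2 changes of -1.97 (adjusted p 1.74e-11) for EIF5A2 and 0.06 (adjusted p 0.527) for EIF5A. In parental cells EIF5A2 was also higher at 8 h, at 10.3, 10.4 and 10.2 CPM against 5.71, 8.20 and 5.72 at 0 h (0.65 ± 0.12, adjusted p 0.000475). The 48 h change in MYC-ER cells (0.44, adjusted p 0.0082) lost its call once MYC-ER 48 h replicate 2 was left out (0.32).

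The courses over time fell into a few kinds. There were 14 factors higher at 8, 24 and 48 h (12.2% of all genes), among them EIF4A1, EIF4EBP1, EIF2B2, EIF3D, EIF3J and EIF5A, and 6 lower at all 3 times (10.3% of all genes), namely EIF1B, EIF2AK3, EIF3E, EIF4A2, EIF4EBP2 and EIF4EBP3. Counting 8 and 24 h alone, 27 were higher at both (22.3% of all genes). The calls in these comparisons rest on the same untreated libraries. Of the 47 factors called at 8 h, 43 kept their call and direction in all 33 alternative fits, 32 higher and 11 lower; the other 4 were EIF2AK1, EIF2B4, EIF2S3B and EIF3A. At 48 h, when 44.1% of all genes were called, 21 of 31 did. Of the 14 factors higher at all 3 times, EIF3C, EIF3CL, EIF3I, EIF4E, EIF4G3 and EIF5A2 did not keep their 48 h call in all 33. EIF2S3B did not keep its 8 h call.

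Beyond the initiation factors, a list of 50 other genes of translation and its control was read, of which 49 were tested. At 8 h 29 were higher and 11 lower (32.2% and 35.4% of all genes), and at 48 h 10 and 16 (23.4% and 20.7%). The 3 with the largest rise at 8 h were BZW1, a mimic of eIF5, at 126, 134 and 131 CPM before and 450.4, 448 and 435 after, EEF1E1, a scaffold protein of the aminoacyl-tRNA synthetase complex, and GSPT1, the termination factor eRF3a. Their log2 changes were 1.77, 1.46 and 1.45. The 3 with the largest fall were PAIP2B, PDCD4 and DEPTOR. PDCD4, an inhibitor of the EIF4A helicase, fell from 724, 786 and 747 CPM to 171, 175 and 166, a log2 change of -2.14 ± 0.05 (adjusted p 1.16e-18). PAIP2B, which blocks the poly(A)-binding protein, and DEPTOR, an inhibitor of mTOR, changed by -2.57 (adjusted p 3.88e-14) and -1.22 (adjusted p 1.19e-10). These 3 had been above the parental level before 4-OHT, and BZW1, EEF1E1 and GSPT1 below it. Parental cells at 8 h also had PAIP2B, PDCD4 and DEPTOR called lower, and BZW1 and GSPT1 higher. Mean PDCD4 went from 367 to 272 CPM there, and BZW1 from 202 to 297. For each of these genes the change at 8 h differed between the lines, in the direction of the MYC-ER change.

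In parental cells, which lack the fusion, 11 factors were called higher and 19 lower at 8 h (15% and 16% of all genes), 17 and 19 at 24 h (21.2% and 21.7%), and 15 and 21 at 48 h (20.4% and 20.1%). None rose or fell by 2-fold at 8 h (1.08% and 1.1% of all genes did), and at 24 h EIF4EBP3 alone fell that far (465 of 22158 genes did). At 8 h EIF3G, a core eIF3 subunit, had the largest fall, from 180.1, 129 and 185 CPM to 119.8, 124 and 124 (log2 change -0.43 ± 0.09, adjusted p 0.000779), and at 24 h EIF2AK2 the largest rise after EIF5A2, from 44.0, 63.4 and 41.5 CPM to 79.3, 72.5 and 80.8 (log2 change 0.64 ± 0.10, adjusted p 4.02e-05). At 24 h EIF3K, another eIF3 subunit, was at 163, 172 and 172 CPM against 268, 194 and 279 at 0 h (log2 change -0.55 ± 0.09, adjusted p 5.09e-05). In each of these the untreated libraries were spread more widely than the treated ones. Few of the 8 h calls held in the alternatives: of 30 (31% of all genes), 2 kept their call in all 33 alternative fits, as did 11 of 36 at 24 h and 10 of 36 at 48 h. A fit of the 2 compared groups alone left 3 higher and 0 lower at 8 h at an adjusted p of 0.05 or less, and 1452 of all genes in place of 6870. The same fit left 10 higher and 4 lower at 24 h, and 6 and 6 at 48 h. The 8 h call of EIF3G was among those lost in it (-0.43). Parental log2 changes also followed the GC content of the genes (Spearman rho -0.64 at 8 h over 9777 genes, which are not independent replicates). Those of MYC-ER cells had a rho of 0.02 at 8 h, -0.06 at 24 h and 0.03 at 48 h. With the GC trend removed, 4 factors were called higher in parental cells at 8 h. Untreated parental libraries were the most variable group, with a median coefficient of variation of 12.2% over the factors against 1.99% to 6.63% in the other groups.

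The change in MYC-ER cells differed from that in parental cells for 43 factors at 8 h (55.2% of all genes), 35 with a higher change and 8 with a lower one (27.3% and 27.8% of all genes). At 24 h 26 had a higher and 15 a lower change (27.7% and 26.8%), and at 48 h 19 and 11 (23.6% and 21.4%). With library size alone the 48 h split was 25 and 10 (63.5% of all called genes higher in place of 52.5%). These differences between the lines followed the GC content of genes, with Spearman rho 0.236, 0.258 and 0.475 at 8, 24 and 48 h. With the GC trend removed the splits were 37 and 7, 27 and 14, and 24 and 11. For EIF4E the difference at 8 h was 1.32 ± 0.08 (adjusted p 9.95e-12), for EIF4G1 1.27 ± 0.10 (adjusted p 2.04e-10) and for EIF4A1 1.43 ± 0.13 (adjusted p 4.92e-09). For EIF4A2 it was -1.16 ± 0.10 (adjusted p 3.11e-09). The changes of these 4 genes in parental cells at 8 h were 0.33, -0.05, -0.26 and -0.06.

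After 24 and 48 h the lines differed most in EIF4EBP3 and EIF5A2, which had already differed before 4-OHT (log2 differences of 1.44 and -1.98). At 48 h the change after 4-OHT did not differ between the lines past the threshold for either gene. At 24 h it did for EIF4EBP3 but not for EIF5A2. EIF4EBP3 was at 8.88, 8.76 and 9.06 CPM in MYC-ER libraries at 24 h and 1.97, 1.78 and 2.18 in parental ones, a log2 difference of 2.17 ± 0.12 (adjusted p 2.38e-12), and the libraries do not overlap. EIF5A2 was at 2.14, 2.60 and 2.01 CPM against 9.10, 8.59 and 9.50 at 48 h, a log2 difference of -2.01 ± 0.13 (adjusted p 1.84e-11). In parental cells EIF4EBP3 had fallen by 24 h (-1.19) and EIF5A2 was at 0.47 at 48 h (adjusted p 0.00394), a call lost in a fit of the compared groups alone (0.48) and with the GC trend removed (0.025). Of the other factors below parental cells at 48 h, EIF2B3 (-1.14), EIF5B (-1.01) and EIF2S1 (-0.83) had been above them at 8 h (0.46, 0.55 and 0.38). EIF5A (-1.13) had a difference of -0.02 at 8 h that did not pass the threshold (adjusted p 0.868). Before treatment EIF2B3, EIF5B, EIF2S1 and EIF5A had all been called below parental cells, EIF5A by -1.83. EIF4B (0.68), EIF2D (0.51) and EIF3L (0.41) were above parental cells at 48 h, as they had been before treatment (0.78, 0.61 and 0.44).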

How the data were processed

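Poly(A)-selected, stranded RNA-seq libraries (150-base paired reads, 3 libraries pooled per lane, lanes not assigned to libraries in the labels) were deposited by the authors as 1 table of whole-number counts per gene, not normalised. Reads were processed with Trimmomatic 0.39, STAR and StringTie 2.1.3b on GRCh38, per the submitters' processing notes, with no role or order given; if StringTie derived the counts from coverage, they are estimates. How near-identical genes were counted is not given in the sources used here. Symbols were matched for 60295 of 60668 identifiers, gene types came from GENCODE, and per-kilobase values used the longest annotated coding transcript.

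Groups came from the labels. Genes passing filterByExpr (22158) were TMM-scaled, and all 24 libraries entered 1 edgeR 4.0.16 fit (R 4.3.3) of group means. The 15 contrasts were tested with the two-sided quasi-likelihood F test, Benjamini-Hochberg adjusted within a contrast at 0.05; a difference between lines subtracts the parental change from that in MYC-ER cells. The members and gene lists were chosen with earlier results of these data known. Values in each library were given for members fixed by role and for up to 3 members with the largest rise and fall per contrast (at least 1 CPM, no overlap between groups); other members are counted and may be named. Totals of 136860029 to 182438505 counts put the limit that a count of 0 allows (3 counts) at 0.0219 CPM or less, for counting error only. On simulated data for MYC-ER 8 h against 0 h (20921 genes), the fit recovered 4%, 34%, 94% and 100% of 1.25-, 1.5-, 2- and 3-fold changes. The simulation gave all genes the same spread, a coefficient of variation of 0.15. Replicate counts differed beyond sampling noise in all 24 pairs (chi-square per degree of freedom 8.93 to 284.9). Alternatives were 3 other scalings, 2 other count filters, DESeq2 1.42.0, the compared groups alone, the replicate block and leaving out each library; removal of each library's GC trend was added after seeing the data.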

Additional observations from a re-analysis of the deposited data

Results flagged for a closer look

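The results listed here stood out because the change after 4-OHT differed between the lines by a test of the difference itself (the parental change subtracted from that in MYC-ER cells, edgeR quasi-likelihood test, all adjusted p at or under 0.05); the 3 initiation factors with the largest positive and negative differences at each time are given. At 8 h the log2 differences were 2.52 for EIF4EBP1, 2.13 for EIF2B2 and 2.06 for EIF5A2, and -1.16 for EIF4A2, -0.84 for EIF4EBP2 and -0.75 for EIF2AK3. At 24 h they were 2.59 for EIF4EBP1, 1.97 for EIF5A and 1.78 for EIF5AL1, a near-copy of EIF5A, and -1.28 for EIF2AK3, -1.03 for EIF4EBP2 and -0.86 for EIF3E. At 48 h they were 1.32 for EIF2B2, 1.08 for EIF4EBP1 and 0.70 for EIF5A, and -0.91 for EIF2AK3, -0.85 for EIF4A2 and -0.82 for EIF4G2.

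Part of each difference is the parental change, and that line's untreated libraries were the most variable. Over all genes the differences also followed GC content (Spearman rho 0.236, 0.258 and 0.475 at 8, 24 and 48 h). For EIF2AK3 at 24 h the MYC-ER libraries were at 16.5, 16.0 and 16.8 CPM from 29.3, 31.3 and 28.5, and the parental ones at 24.9, 22.6 and 23.1 from 16.5, 21.0 and 15.1, so the lines moved in opposite directions, both calls being kept in every alternative run. For EIF4EBP1 at 24 h there were parental libraries at 36.8, 40.9 and 37.4 CPM from 57.3, 39.5 and 64.0 and MYC-ER libraries at 82.2, 80.0 and 73.0 from 17.9, 17.6 and 19.1. The parental libraries of the 2 times overlap, and the parental call (-0.48) was lost in a fit of the compared groups alone (-0.48) and with the GC trend removed (-0.034). For EIF2B2 at 48 h the MYC-ER log2 change was 1.01 and the parental change -0.30. Because the MYC-ER baseline also differed from the parental one for most of these genes, the level reached and the size of the change are separate facts: EIF2B2 at 48 h was still below the parental libraries (-0.73, adjusted p 6.44e-09), while EIF4EBP1 at 24 h was above them (1.03, adjusted p 9.4e-08).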

How the results depend on the processing

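Over 33 alternatives, 25534 of 26730 recomputed single-factor values kept their direction and their side of the threshold. Counts of factors moved by over 1.5 times as follows, and where no construction is named the cause was not tested. With library size alone, factors higher at 48 h in MYC-ER cells were 26, those rising between 8 and 24 h 13 and those falling 21; against parental cells 4 were lower at 8 h, 25 higher and 8 lower at 24 h, and 20 higher at 48 h. Upper-quartile scaling gave 8 rising between 8 and 24 h, 22 higher and 10 lower against parental at 24 h, and 17 higher at 48 h. Fitting only the groups compared, which uses fewer libraries, gave 23 lower at 48 h and 8 rising between 8 and 24 h in MYC-ER cells, 4 lower against parental at 8 h, and in parental cells 3 higher, 0 lower and 1452 genes called at 8 h, 10 higher, 4 lower and 4923 genes at 24 h, and 6 higher, 6 lower and 3274 genes at 48 h. With DESeq2 size factors, or no filter on low counts, 1 factor was lower than parental at 8 h. With the GC trend removed, parental cells had 4 factors higher at 8 h, 8 at 24 h and 6 at 48 h. Leaving out 1 library gave 8 to 23 lower factors in parental cells at 8 h, 12 to 25 at 24 h, and 1 to 2 factors lower than parental at 8 h.

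Directions turned for 34 single values, and the cause was not tested. With the GC trend removed, parental log2 changes became -0.043 and -0.17 for EIF1AX at 24 and 48 h, -0.26 for EIF2A at 24 h, -0.075 and -0.21 for EIF2S1 at 8 and 24 h, -0.24 for EIF3E at 48 h, -0.014, -0.18 and -0.27 for EIF3J at 8, 24 and 48 h, -0.089 and -0.20 for EIF4E at 24 and 48 h, -0.032 and -0.017 for EIF4E3 at 24 and 48 h, -0.06 for EIF5 at 48 h, and -0.084 and -0.29 for EIF5B at 24 and 48 h. The same removal gave, at 0 h against parental, 0.011 for EIF2B4, 0.012 for EIF3G and -0.023 for EIF3H, and differences between lines of -0.010 for EIF2B4, 0.35 for EIF2S1 and 0.38 for EIF5A2 at 48 h and 0.003 for EIF3H at 24 h. With library size alone, changes between 8 and 24 h became 0.19 for EIF2A, 0.018 for EIF2B5, 0.013 for EIF3A, 0.025 for EIF3D, 0.19 for EIF3L and 0.15 for EIF4H; at 48 h 0.089 for EIF2AK1 and 0.16 for EIF4A3; at 24 h 0.090 for EIF3M; and against parental 0.006 for EIF2S1 at 24 h and 0.14 for EIF4H at 48 h.

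Replicate numbers did not pair the samples: deviations of same-numbered libraries correlated at -0.034 to 0.052 over the pairs of groups. With the replicate number as a block, 36 factors were higher at 8 h in MYC-ER cells, as without it, and no count of factors moved by over 1.5 times. Simulated 1.25-fold changes were recovered in 4% of cases, with the same coefficient of variation, 0.15, set for all genes. The median coefficient of variation of the factors was 1.99% to 12.2% over the 8 groups. The simulation therefore does not set a limit for the differences given here.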
